A study of Arabidopsis thaliana with 18 samples.

Results

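The genes of the Arabidopsis mitochondrial genome were examined in root tips and in GFP-positive cells sorted from roots. A gene was taken as a member when its identifier starts with ATMG, which gave 146 of the 33560 genes in the table of sorted cells. In the root tip table, 145 of these genes stood in 141 of 33201 entries, and 3 entries merged neighbouring mitochondrial genes under several names. RNA was sequenced from 18 samples of 5-day-old seedlings in 6 groups of 3 replicates. Root tips came from the tcx2-3 knockout and from wild type (WT, Col-0). TCX2 is a CXC-domain transcription factor expressed across root stem cells. In the other groups, roots in a tcx2 background were digested to protoplasts and GFP-positive cells were collected by flow cytometry, with the reporters TMO5:3xGFP (xylem), FEZ:FEZ-GFP (epidermis and lateral root cap initials), WOX5:GFP (quiescent center) or CYCD6:GFP (cortex endodermis initials). The reporter lines were crossed into tcx2-2 or tcx2-3, and which allele each population carried is not given in the sources used here, so reporter and allele cannot be told apart. No WT sorted cells were among the samples, so the sorted libraries were compared only with each other.

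Plant mitochondria keep a genome of their own that encodes ribosomal RNAs, a few ribosomal proteins and core subunits of the respiratory chain, while the nucleus encodes most of the organelle's proteins. Its transcripts are spliced, edited from C to U and trimmed by nuclear-encoded factors, and they generally lack the long poly(A) tails of cytosolic mRNAs. Besides genes of known function, the genome holds many open reading frames (ORFs) of unknown function, and in this species a large piece of it has been copied into chromosome 2.

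The members were sorted by role. Gene names were not given with the identifiers in the files and were taken from the RefSeq annotation of TAIR10.1 by length, spacing and notes, which named 41 members. These were 3 ribosomal RNA genes, 14 complex I entries (nad), cob of complex III, 3 complex IV genes (cox), 6 ATP synthase genes (atp), 5 genes for cytochrome c maturation (ccm), 7 ribosomal protein genes, the intron maturase matR and the membrane transporter mttB. Of the other members, 19 were the size of a tRNA gene, under 100 bases, and 86 were ORFs without a name in that annotation. The nuclear genome matched 73.4% of the mitochondrial genome at 95% identity or more over at least 100 bases, and 159 of the 168 nuclear genes with such a match lay on chromosome 2. Of 39 mitochondrial entries other than tRNA and rRNA genes, 26 were matched along every base and 6 had no matched base. The 6 were ccmB, cox1, atp4, nad4L and the nad5 entries of 1520 and 22 bases. Among the rRNA genes, rrn5 and rrn18 had no match.

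Where the DNA of the mitochondrial and nuclear copies is identical, reads of unedited bases cannot be told apart by sequence, and editing was not examined. The match is shown for atp9 (ATMG01080, the ring subunit of ATP synthase) over its whole annotated length of 225 bases. For atp1 (ATMG01190, the catalytic-head alpha subunit) and cox3 (ATMG00730, a core subunit of cytochrome c oxidase) the first 60 bases are shown. In TAIR10.1 the atp9 gene lies at MT:270961-271185 on the minus strand and its copy AT2G07671 at chr2:3251856-3252080 on the minus strand. The atp1 stretch lies at MT:68562-68621 on the minus strand and its copy in AT2G07698 at chr2:3362505-3362564 on the plus strand, and the cox3 stretch lies at MT:330714-330773 with its copy in AT2G07687 at chr2:3312592-3312651, both on the minus strand. Each sequence stands once, 5′ to 3′ and without capitals, since 0 of 225, 0 of 1524 and 0 of 798 bases differed between the copies over the full genes.
atp9: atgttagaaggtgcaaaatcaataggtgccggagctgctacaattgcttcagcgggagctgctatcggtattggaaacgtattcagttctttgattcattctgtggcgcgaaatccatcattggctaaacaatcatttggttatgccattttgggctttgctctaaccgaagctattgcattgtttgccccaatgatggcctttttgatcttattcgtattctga
atp1: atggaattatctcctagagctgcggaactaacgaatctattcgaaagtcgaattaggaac
cox3: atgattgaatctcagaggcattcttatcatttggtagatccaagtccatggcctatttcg

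The sorted libraries were first set against markers of the cells they are named for. The gene TMO5 was listed at 0, 0.21 and 0 FPKM (reads scaled to gene length and to library size) in the libraries labelled TMO5:3xGFP, and at 3.75, 0.39 and 0.78 FPKM in those labelled WOX5:GFP. WOX5 was listed at 1.49, 1.00 and 0 FPKM in libraries labelled TMO5:3xGFP and at 0 in all 3 libraries labelled WOX5:GFP. The sum of 4 xylem markers was 0 to 0.43 FPKM in libraries labelled TMO5:3xGFP and 0.39 to 6.19 FPKM in those labelled WOX5:GFP. The sum of 4 epidermis and root cap markers was 5.89 to 12.1 FPKM in libraries labelled TMO5:3xGFP, 2.52 to 11.1 FPKM with FEZ:FEZ-GFP, 0 to 0.22 FPKM with WOX5:GFP and 0 to 1.42 FPKM with CYCD6:GFP. The markers thus went against the labels TMO5:3xGFP and WOX5:GFP, whereas ground tissue markers were mixed. CYCD6;1 was at 0 in all libraries labelled CYCD6:GFP, and SCR was there at 0.41, 0.89 and 0.51 FPKM and MGP at 0.73, 1.12 and 0 FPKM. The sum of these 3 genes was 0.51 to 2.01 FPKM with CYCD6:GFP, 0.89 to 1.13 FPKM with TMO5:3xGFP, 0.36 to 0.90 FPKM with FEZ:FEZ-GFP and 0 to 0.45 FPKM with WOX5:GFP. TCX2 itself was at 0.30 FPKM in tcx2 root tips (deposited interval 0.06 to 0.55) and 1.29 FPKM in WT (0.72 to 1.82), intervals that did not overlap, and at 0 to 0.72 FPKM in sorted libraries. Every direction given below is between libraries as labelled, not between verified cell types. Read counts were not used here and the depth is unknown. Libraries labelled TMO5:3xGFP listed 18981 to 22170 genes above 0, more than the 14878 to 18043 of the other 9 libraries.

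In sorted cells, 3 ribosomal RNAs and 1 ORF, ATMG00030, made up 96.8% of the summed mean FPKM of the members. ATMG00030 averaged 27971 FPKM over the 12 libraries, rrn18 (ATMG01390, small-subunit rRNA) 10647 FPKM, rrn26 (ATMG00020, large-subunit rRNA) 9278 FPKM and rrn5 (ATMG01380, 5S rRNA) 625 FPKM. ATMG00030 lies at Mt:11918-12241 in the authors' table, 502 bases past the end of ATMG00020 (Mt:8848-11415), and rrn26 in TAIR10.1 is 601 bases longer than ATMG00020 in that table. The mitochondrial sequence there was not read, because the reference in hand has another build of this chromosome. FPKM divides by gene length, so the share of reads that short ATMG00030 took is smaller than its share of FPKM.

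The mitochondrial share of the summed FPKM was 4.05%, 6.89% and 9.60% in libraries labelled TMO5:3xGFP (6.85 ± 2.78%, SD, n = 3). It was 8.40%, 9.10% and 7.59% with FEZ:FEZ-GFP (8.36 ± 0.76%), 8.48%, 10.2% and 8.07% with WOX5:GFP (8.92 ± 1.13%), and 7.12%, 6.82% and 5.18% with CYCD6:GFP (6.38 ± 1.05%, SD, n = 3 each). The 3 CYCD6:GFP libraries lay below all 6 FEZ:FEZ-GFP and WOX5:GFP libraries, and the TMO5:3xGFP libraries spanned both ranges. These shares were not tested. Nuclear ribosomal RNA took 78.1% to 85.9% of each library's FPKM sum. Without it the mitochondrial share was 34.9 ± 10.3% with TMO5:3xGFP, 44.5 ± 3.5% with FEZ:FEZ-GFP, 44.6 ± 3.6% with WOX5:GFP and 39.8 ± 12.4% with CYCD6:GFP, and the CYCD6:GFP libraries then overlapped the others. The members other than the 3 rRNAs and ATMG00030, taken as a share of themselves and all nuclear genes outside rRNA, came to 2.53 ± 0.66%, 2.52 ± 0.16%, 2.57 ± 0.55% and 2.06 ± 1.10% in the same order, a setting chosen after seeing the data.

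Most single members that passed the test were ORFs called in the libraries labelled TMO5:3xGFP. Values were fitted as log2(FPKM + 1) with limma, and 119 members passed the filter of at least 1 FPKM in at least 3 libraries. Of the remaining members, 20 were at 0 in all libraries and 7 were above 0 but failed the filter. No tRNA-sized member passed, and ATMG00330 and ATMG00780 had the same value, 63.2 FPKM, in FEZ:FEZ-GFP replicate 1 and 0 elsewhere. The overall test of the 4 populations called 8 of the 119 members (6.72%), against 4.28% of all 9979 genes tested. The called members were nad4L (ATMG00650) and 7 ORFs without a name. The count was 5, 4 and 5 without TMO5:3xGFP replicate 1, TMO5:3xGFP replicate 2 and WOX5:GFP replicate 3, and 80 with libraries weighted by limma's arrayWeights. The share of all genes called in those fits was not set beside these counts.

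**Figure D1:**
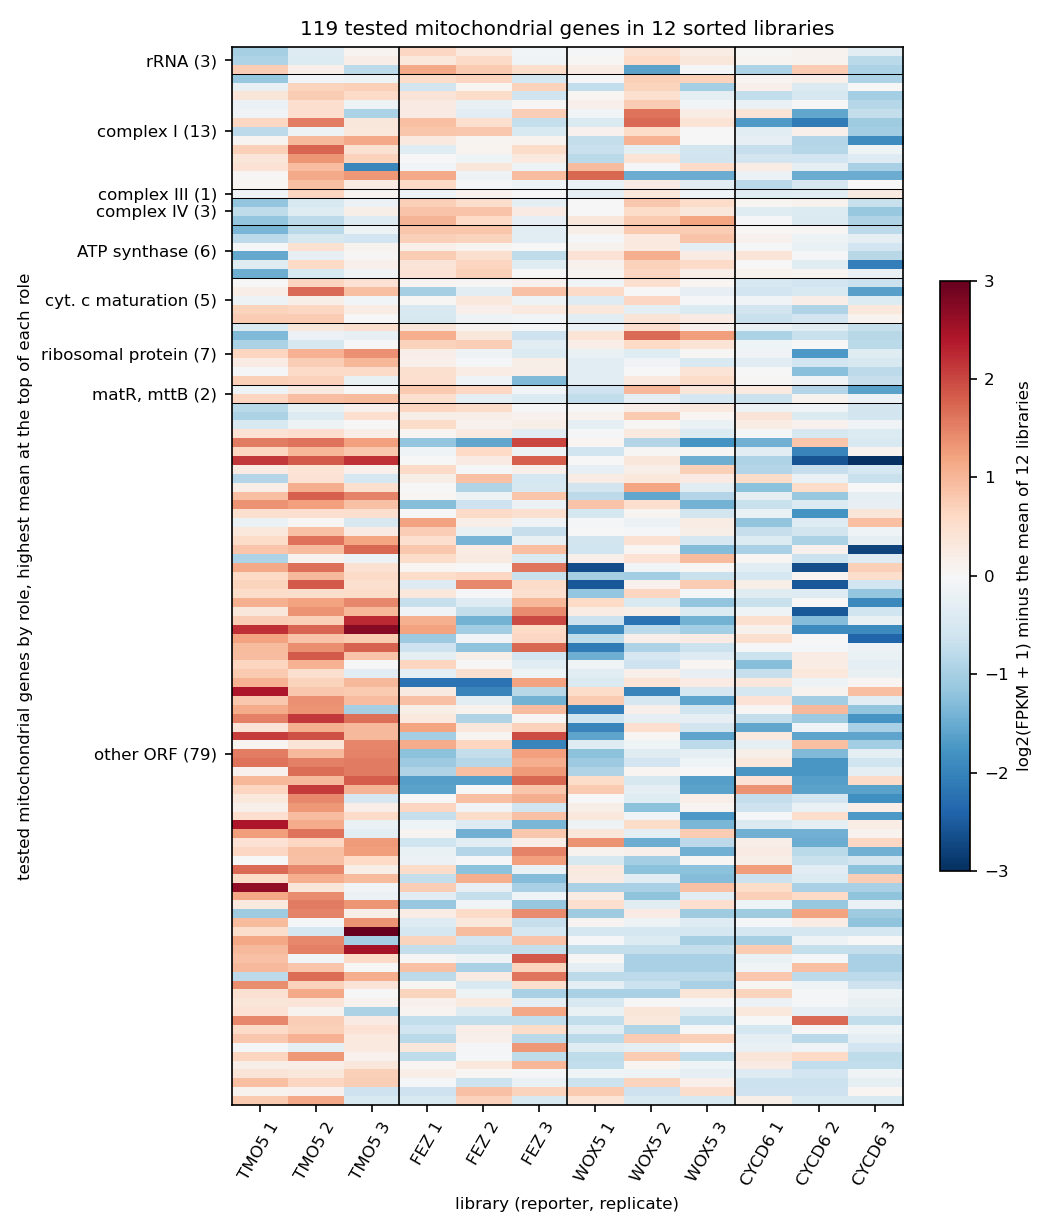
Heat map of the 119 tested members (rows, by role, highest mean at the top of each role) in 12 sorted libraries (columns, by reporter and replicate), coloured by log2(FPKM + 1) minus the row mean. In the ORF block the 3 TMO5:3xGFP columns are mostly red, FEZ:FEZ-GFP replicate 3 is red for many of the same rows, and the rows of complex IV and ATP synthase are bluer in TMO5:3xGFP.

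Against the mean of the other 3 populations, 15 of 119 tested members (12.6%) were higher in libraries labelled TMO5:3xGFP at an adjusted p under 0.05 and a fold over 2, against 4.47% of all tested genes. None was lower, against 1.05% of all genes, and at an unadjusted p under 0.05 there were 54 higher members (45.4%) and 5 lower (4.2%), against 14.8% and 5.71% of all genes. The 15 were 14 of the 79 tested ORFs and mttB, and no rRNA, complex I, complex III, complex IV, ATP synthase, ccm or ribosomal protein gene was among them. The median log2 difference was 0.77 over the tested members and 1.04 over the ORFs, beside 0.14 over all tested genes. Leaving out TMO5:3xGFP replicate 1 or replicate 2 gave 7 and 5 higher members, and leaving out FEZ:FEZ-GFP replicate 3 gave 23. Shifting the libraries to 1 median gave 9, of which 8 were among the 15. The shares of all genes called in these fits were not set beside the counts. The filter itself favours higher values for members that reached it only through TMO5:3xGFP libraries, which were 10 of the 119 and 1 of the 15. The counts above at an unadjusted p under 0.05 keep such genes and were not redone. Without such genes, a setting chosen after seeing the data, 14 of 109 members (12.8%) were higher, against 3.19% of 8378 genes, with medians of 0.75 and 0.04. The larger number of genes above 0 in these libraries moved with this result, and its part was not tested.

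By another measure, all 3 TMO5:3xGFP libraries lay above the other 9 for 16 of the 119 tested members, against 3.42% of all tested genes, and below them for 1, against 1.53%. Without members that passed the filter only through TMO5:3xGFP libraries, 14 of 109 lay above, against 2.3% of such genes. CYCD6:GFP libraries lay below the other 9 for 4 members, against 1.3%, and above for 0, against 0.15%. The count was 0 in either direction for FEZ:FEZ-GFP, against 0.551% above and 0.481% below, and for WOX5:GFP, against 1.41% above and 0.621% below.

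ATMG01030 had the largest difference. This ORF of 321 bases (Mt:264113-264433) has no known function in the annotation used. It was at 16.2, 11.7 and 24.2 FPKM in libraries labelled TMO5:3xGFP, against 7.73, 0.85 and 4.68 FPKM with FEZ:FEZ-GFP, 0, 1.21 and 0.86 FPKM with WOX5:GFP, and 3.12, 0 and 0 FPKM with CYCD6:GFP. All TMO5:3xGFP libraries lay above the other 9, and the log2 difference was 2.96 ± 0.49 (SE, limma adjusted p = 0.00122).

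ATMG00150, an ORF of 351 bases (Mt:35782-36132), was higher with TMO5:3xGFP and lower with CYCD6:GFP. Its values were 50.2, 41.1 and 53.4 FPKM with TMO5:3xGFP, against 10.9, 13.1 and 39.8 FPKM with FEZ:FEZ-GFP, 10.9, 13.9 and 3.26 FPKM with WOX5:GFP, and 5.26, 0.98 and 0 FPKM with CYCD6:GFP. Only FEZ:FEZ-GFP replicate 3 came near the TMO5:3xGFP libraries. The log2 difference was 2.73 ± 0.53 for TMO5:3xGFP (SE, limma adjusted p = 0.00424). For CYCD6:GFP the log2 difference was -3.14 ± 0.53 (adjusted p = 0.0151), the only member called in that population and 0.84% of those tested, against 0.2% of all genes. That call was lost without CYCD6:GFP replicate 2 or replicate 3, after median centring, quantile normalization or scaling to the nuclear sum, with a pseudocount of 5 and without the filter.

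ATMG01110, an ORF of 756 bases (Mt:283034-283789), is linked by an annotation note to AT2G07749 on chromosome 2, whose product is named a mitovirus RNA-dependent RNA polymerase. The mitochondrial gene stood at 8.79, 13.8 and 9.71 FPKM with TMO5:3xGFP, against 0.82 to 3.20 FPKM with FEZ:FEZ-GFP, 1.26 to 1.88 FPKM with WOX5:GFP and 0 to 1.10 FPKM with CYCD6:GFP, without overlap (log2 difference 2.34 ± 0.36, SE, limma adjusted p = 0.000617). AT2G07749 itself was at 8.46, 9.16 and 8.72 FPKM with TMO5:3xGFP, against 7.64 to 8.91 FPKM with FEZ:FEZ-GFP, 3.88 to 6.33 FPKM with WOX5:GFP and 2.40 to 6.59 FPKM with CYCD6:GFP. It lay above all WOX5:GFP and CYCD6:GFP libraries with TMO5:3xGFP, overlapped FEZ:FEZ-GFP and was not called (log2 difference 0.57, adjusted p = 0.404).

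ATMG00850 (Mt:235338-235661) was at 2.20, 3.72 and 8.28 FPKM with TMO5:3xGFP, at 1.77 FPKM in CYCD6:GFP replicate 1 and listed at 0 in the other 8 libraries. It entered the test only because it is high in the TMO5:3xGFP libraries, so its values are given as a description. The fifth by size, ATMG00240 (Mt:68918-69253), had 11.7, 10.4 and 4.96 FPKM with TMO5:3xGFP and overlapped FEZ:FEZ-GFP, at 0.50, 2.19 and 10.8 FPKM. WOX5:GFP libraries had 0 to 2.16 FPKM of it and CYCD6:GFP libraries 0 to 2.70 FPKM, with a log2 difference of 2.21 ± 0.54 (adjusted p = 0.0188).

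**Figure D2:**
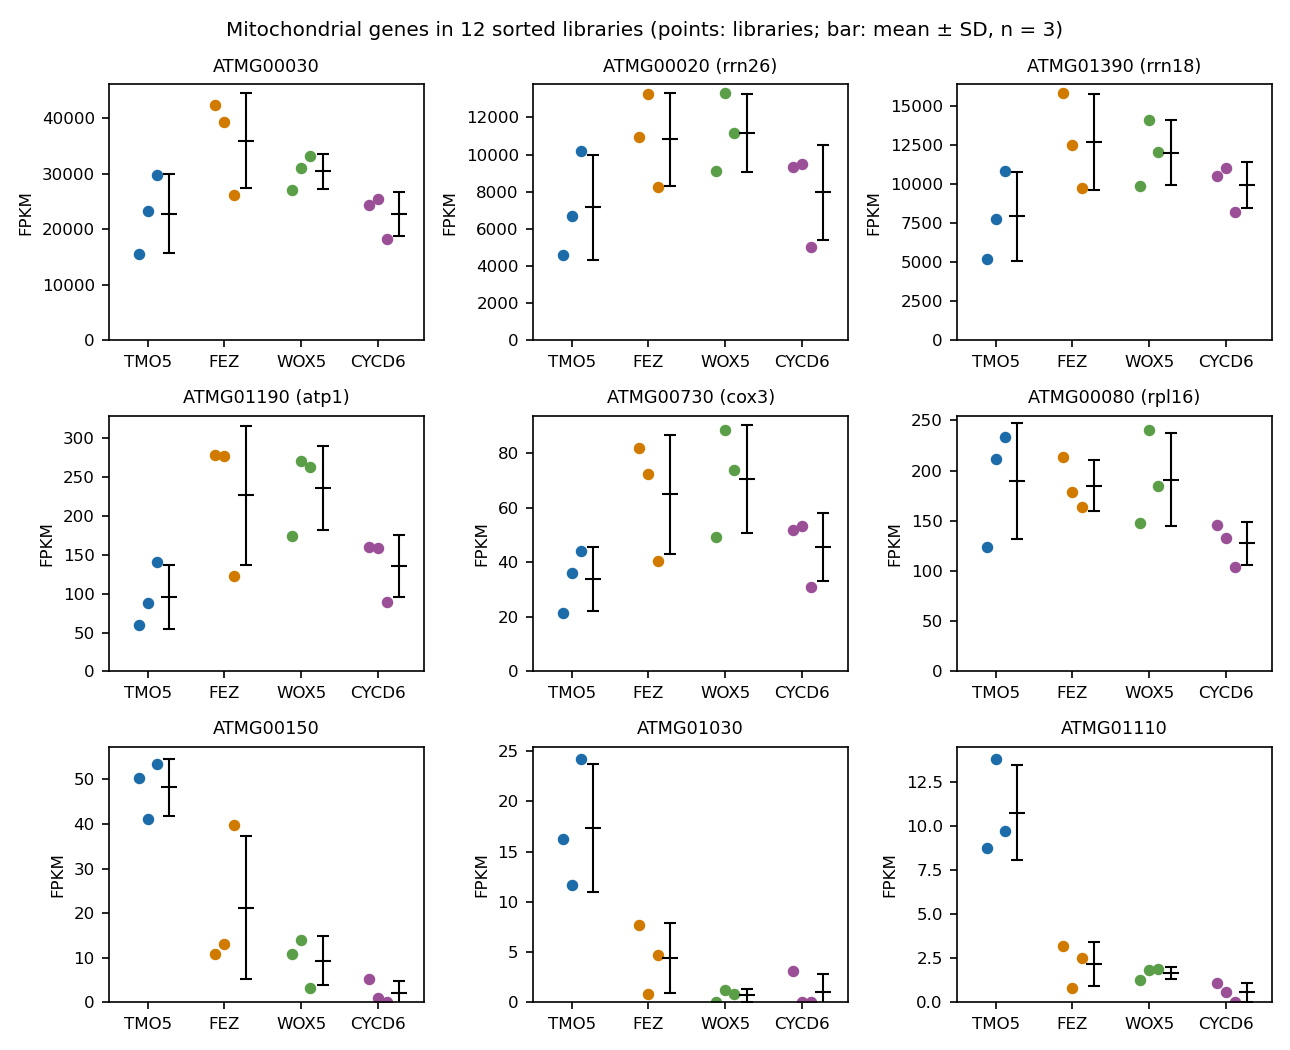
FPKM of 9 members in each sorted library, with the mean and SD of 3 libraries per reporter (error bars are cut at 0). ATMG01030 and ATMG01110 are higher in all TMO5:3xGFP libraries than elsewhere, FEZ:FEZ-GFP replicate 3 reaches 39.8 FPKM of ATMG00150, and ATMG00030, the rRNAs and atp1 overlap between reporters.

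The other 10 members called for TMO5:3xGFP had log2 differences of 1.11 to 2.08. They were ATMG00050, ATMG00120, ATMG00140, ATMG00320, ATMG00430, ATMG00440, ATMG00620, ATMG00680, ATMG01140 and mttB (ATMG00570), a homolog of a bacterial protein-export subunit. ATMG00440 and ATMG01140 are both 459 bases long and had equal values, within 0.1%, in 4 libraries, so the authors' counting may have split or shared reads between them. mttB was at 2.98, 3.75 and 3.91 FPKM with TMO5:3xGFP, against 0.91 to 2.56 FPKM with FEZ:FEZ-GFP, 0.52 to 1.07 FPKM with WOX5:GFP and 0.63 to 1.74 FPKM with CYCD6:GFP. Its log2 difference of 1.11 ± 0.32 (SE, adjusted p = 0.0472) stood near both thresholds, and the call was lost in 18 of 21 alternative fits. The calls of ATMG00680, ATMG00620 and ATMG00320 were lost in 15, 14 and 12 of 22, and those of the other 6 in 1 to 9.

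The ribosomal RNAs were not called in any population. With TMO5:3xGFP, rrn26 was at 4613, 6684 and 10187 FPKM, against 8237 to 13248 FPKM with FEZ:FEZ-GFP, 9094 to 13290 FPKM with WOX5:GFP and 5038 to 9510 FPKM with CYCD6:GFP, and the ranges overlapped (log2 difference -0.50 ± 0.26, adjusted p = 0.293). rrn18 had 5180, 7790 and 10865 FPKM with TMO5:3xGFP, against 9745 to 15832, 9900 to 14097 and 8242 to 11016 FPKM in libraries of FEZ:FEZ-GFP, WOX5:GFP and CYCD6:GFP (-0.58 ± 0.24, adjusted p = 0.169). rrn5 ranged from 315 to 894 FPKM with TMO5:3xGFP, from 779 to 1180 FPKM with FEZ:FEZ-GFP, from 176 to 631 FPKM with WOX5:GFP and from 280 to 915 FPKM with CYCD6:GFP. ATMG00030 stood at 15473 to 29710 FPKM with TMO5:3xGFP, against 26159 to 42381 FPKM with FEZ:FEZ-GFP, 26981 to 33254 FPKM with WOX5:GFP and 18273 to 25498 FPKM with CYCD6:GFP (-0.39 ± 0.21, adjusted p = 0.296).

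No gene of the respiratory chain was called in a contrast of 1 population with the others, and nad4L alone passed the overall test. atp1 was at 59.2, 87.5 and 140 FPKM with TMO5:3xGFP, against 279, 277 and 123 FPKM with FEZ:FEZ-GFP, 174, 270 and 263 FPKM with WOX5:GFP, and 160, 158 and 89.3 FPKM with CYCD6:GFP (log2 difference -1.04 ± 0.41, SE, limma adjusted p = 0.151). cox3 was at 21.2, 35.9 and 44.3 FPKM with TMO5:3xGFP, against 40.4 to 81.9 FPKM with FEZ:FEZ-GFP, 49.3 to 88.5 FPKM with WOX5:GFP and 31.1 to 53.3 FPKM with CYCD6:GFP (-0.81 ± 0.41, adjusted p = 0.276). The 3 complex IV genes all had negative differences for TMO5:3xGFP (median -0.81) and positive ones for FEZ:FEZ-GFP and WOX5:GFP (medians 0.62 and 0.61), and 0 of 3 were called. Of the 6 ATP synthase genes, 4 had negative differences with TMO5:3xGFP (median -0.80), and atp9, at 69.2, 84.9 and 80.0 FPKM, lay below all 9 other libraries, at 94.3 to 219 FPKM, without passing the test (-0.82 ± 0.38, adjusted p = 0.230). Each of these groups is small, and p values that miss the threshold leave room for differences of the size seen.

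Complex I genes varied among themselves. Their median log2 difference for TMO5:3xGFP was 0.53, with a range of -0.61 for nad7 (ATMG00510, the most abundant, a peripheral-arm subunit) to 1.29, and 0 of 13 were called. nad4L (ATMG00650), a small membrane-arm subunit, passed only the overall test (adjusted p = 0.0470). It was at 2.67, 1.79 and 4.74 FPKM with CYCD6:GFP, below all 9 other libraries, at 6.22 to 37.8 FPKM, and its contrast for CYCD6:GFP missed the threshold (-2.16 ± 0.48, adjusted p = 0.0693). cob (ATMG00220, cytochrome b) ranged from 3.09 to 5.85 FPKM with TMO5:3xGFP and from 2.42 to 4.49 FPKM in the other libraries. The rpl16 gene (ATMG00080, a large-subunit ribosomal protein) ranged from 124 to 234 FPKM with TMO5:3xGFP and from 104 to 240 FPKM elsewhere. ccmFC (ATMG00180, for heme attachment to cytochrome c) was at 3.25, 2.95 and 2.78 FPKM with CYCD6:GFP, below the 4.48 to 8.19 FPKM of all other libraries, and was not called (-0.76 ± 0.34, adjusted p = 0.426). matR (ATMG00520), which lies inside an intron of nad1, ranged from 5.64 to 8.00 FPKM with TMO5:3xGFP and from 1.45 to 13.6 FPKM elsewhere.

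Summed over a library, the 85 ORFs without ATMG00030 reached 740, 891 and 813 FPKM with TMO5:3xGFP, against 513, 476 and 664 FPKM with FEZ:FEZ-GFP, 388, 490 and 374 FPKM with WOX5:GFP, and 415, 349 and 340 FPKM with CYCD6:GFP. The TMO5:3xGFP libraries were above all others, with FEZ:FEZ-GFP replicate 3 next. The 38 named protein genes summed to 665, 1067 and 1079 FPKM with TMO5:3xGFP, against 887 to 1466 FPKM with FEZ:FEZ-GFP, 987 to 1555 FPKM with WOX5:GFP and 602 to 935 FPKM with CYCD6:GFP, which overlapped. The ratio of the ORF sum to the sum of named genes was 0.90 ± 0.19 with TMO5:3xGFP, 0.48 ± 0.23 with FEZ:FEZ-GFP, 0.33 ± 0.06 with WOX5:GFP and 0.48 ± 0.08 with CYCD6:GFP (SD, n = 3 each). TMO5:3xGFP replicate 3 (0.754) and FEZ:FEZ-GFP replicate 3 (0.748) were nearly equal in it. These sums and ratios were not tested.

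The difference also ran with level. Of the 61 tested members with a mean under 5 FPKM, 10 passed the filter only through the TMO5:3xGFP libraries and were left out here. Of the other 51, 47 had a positive difference for TMO5:3xGFP (median 1.04) and 7 were called, and of the 34 at 5 to 20 FPKM, 27 were positive (median 0.92) and 6 called. Of the 17 at 20 to 100 FPKM, 9 were positive (median 0.08) and 1 called, and of the 7 at 100 FPKM or more, 2 were positive (median -0.50) and 0 called. Over all 8378 genes with the same filter, 3.19% were called higher and the median was 0.04. Those genes were not split by level, so whether low genes in general leaned the same way was not tested. Role and level overlap in the members and were not separated.

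**Figure D3:**
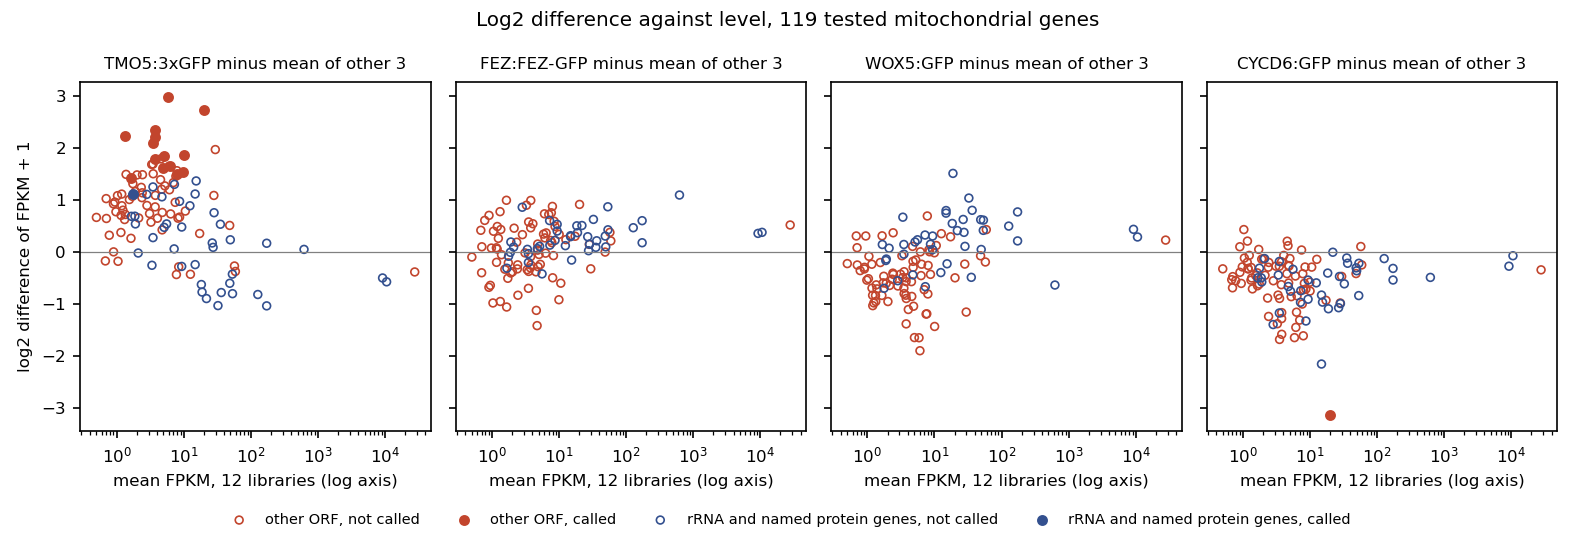
Log2 difference of each population from the mean of the other 3 against mean FPKM (log axis) for the 119 tested members, with filled points for called members. For TMO5:3xGFP the low ORFs lie above 0 up to 2.96, and members at 100 FPKM or more lie near or below 0.

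In the other populations few or no members passed the test. For FEZ:FEZ-GFP limma called 0 higher and 0 lower, against 0.22% and 0.02% of all genes, with 6 and 5 members (5.04% and 4.2%) at an unadjusted p under 0.05, against 4.12% and 3.15% of all genes, and a median difference of 0.14. For WOX5:GFP it called 0 and 0, against 0.351% and 0.451%, with 2 higher and 13 lower (1.68% and 10.9%) at an unadjusted p under 0.05, against 5.42% and 5.88% of all genes, and a median of -0.24, and the median of the ORFs was -0.47 while that of the ATP synthase genes was 0.56. For CYCD6:GFP it called 0 higher and 1 lower, against 0% and 0.2% of all genes. At an unadjusted p under 0.05 there were 0 and 28 members (0% and 23.5%), against 1.83% and 9.09% of all genes. The difference was positive for 8 of 119 members (median -0.49, beside -0.10 over all genes).

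Nuclear genes that carry copies of mitochondrial DNA were examined beside the members. Of 101 tested nuclear genes with a mitochondrial match, 15 (14.9%) were higher with TMO5:3xGFP and 0 lower (median 0.75), against 4.47% and 1.05% of all genes (median 0.14). Genes that passed the filter only through TMO5:3xGFP libraries were not left out of these counts. Among 48 pairs of a member and a nuclear gene annotated as its copy, the 2 log2 differences had the same sign in 43 pairs for TMO5:3xGFP, 30 for FEZ:FEZ-GFP, 35 for WOX5:GFP and 43 for CYCD6:GFP. The medians of members and of copies were 0.67 and 0.57 for TMO5:3xGFP, 0.19 and 0.16 for FEZ:FEZ-GFP, -0.06 and -0.10 for WOX5:GFP, and -0.52 and -0.57 for CYCD6:GFP, so the high counts came where most genes on both axes leaned to 1 side. The 4 contrasts share their libraries. AT2G07698, the copy of atp1, was at 39.7, 66.1 and 103 FPKM with TMO5:3xGFP, against 79.9 to 161 FPKM with FEZ:FEZ-GFP, 111 to 174 FPKM with WOX5:GFP and 58.8 to 98.8 FPKM with CYCD6:GFP. Ranked by mean, the populations stood in the same order for this gene and for atp1, with WOX5:GFP highest and TMO5:3xGFP lowest. Ranked by log2 difference, cox3 and its copy also shared the same order of the populations, and atp9 and its copy did not. For TMO5:3xGFP, cox3 and its copy AT2G07687 had log2 differences of -0.81 and -0.54. Those of atp9 and its copy AT2G07671 had opposite signs, -0.82 and 0.16. Of the 15 members higher with TMO5:3xGFP, 4 were named in the annotation note of a nuclear gene and 11 were not. The lack of a note does not show that a nuclear copy is lacking. The mttB gene, among the 11, was matched in the nuclear genome along all of its 843 bases. Whether reads from 1 copy were counted at the other was not tested.

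**Figure D4:**
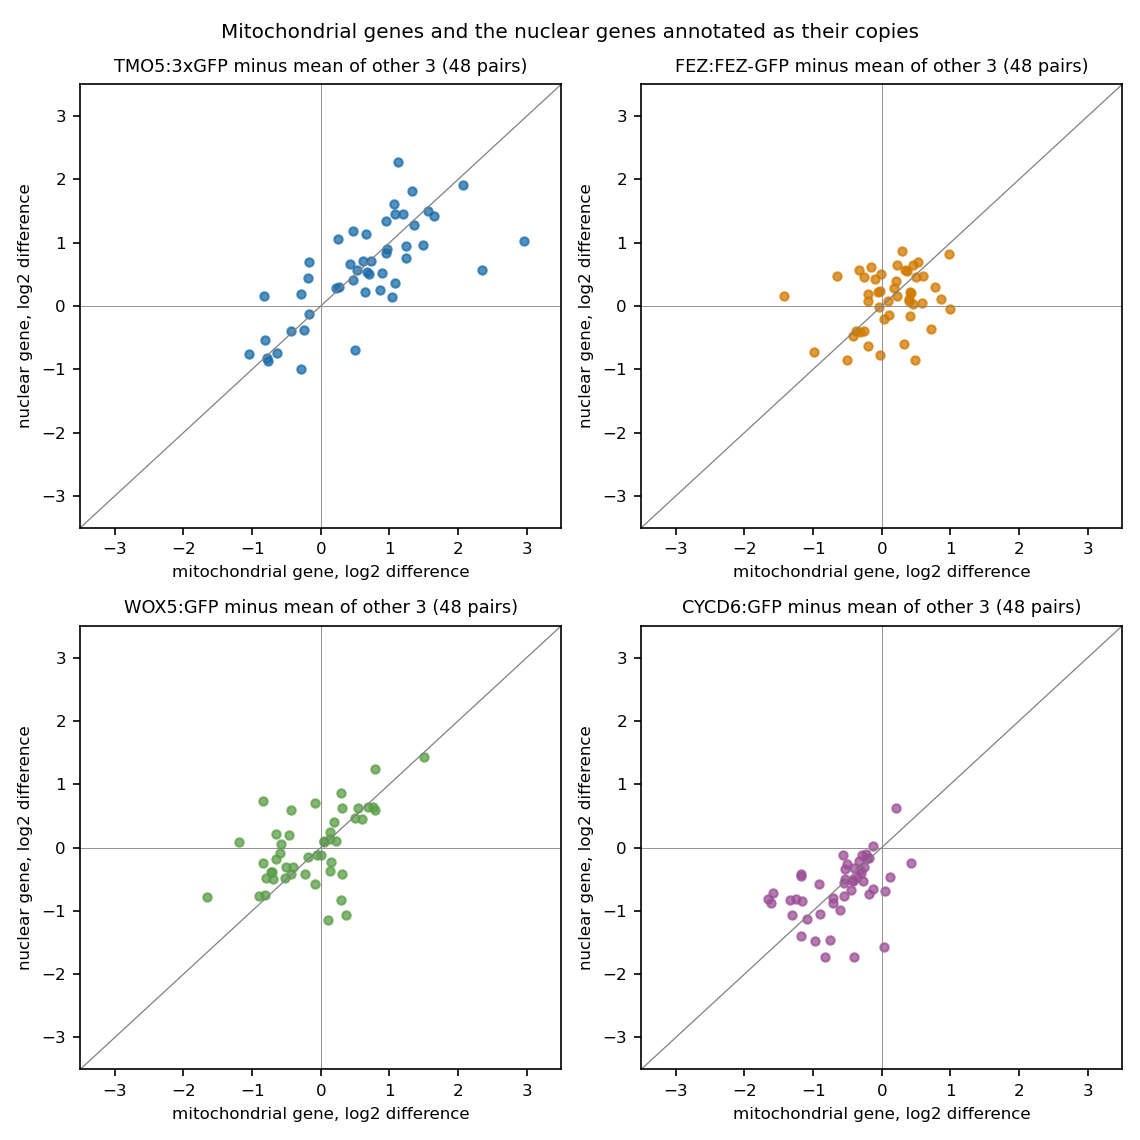
Log2 difference of 48 nuclear genes annotated as copies (vertical axis) against that of their mitochondrial genes (horizontal axis), for each population against the mean of the other 3, with the line of equality. Pairs with the same sign number 43 for TMO5:3xGFP, mostly above 0, 30 for FEZ:FEZ-GFP and 35 for WOX5:GFP, around 0, and 43 for CYCD6:GFP, mostly below 0.

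Nuclear genes for mitochondrial functions, on which the organelle's gene expression depends, were examined next. The list held RNA polymerases, splicing and DNA upkeep factors, alternative oxidases and nuclear subunits of the respiratory chain. Of its 44 tested genes, limma called 0 in any contrast and 0 in the joint test of the 4 populations. Over all genes the joint test called 4.28%. The contrasts called 4.47% higher and 1.05% lower for TMO5:3xGFP and at most 0.451% in the others. At such shares few calls would fall among 44 genes, so the 0 is not read as a result. At an unadjusted p under 0.05 the joint test had 2 of the 44, against 1806 of all 9979 genes. The median log2 difference of the list was -0.27 with TMO5:3xGFP and 0.26 with WOX5:GFP, beside 0.14 and -0.01 over all genes. For TMO5:3xGFP, 0 of the 44 genes were higher and 4 lower at an unadjusted p under 0.05, against 14.8% and 5.71% of all genes. Among the 4 were cytochrome c gene AT1G22840 (-0.85 ± 0.40, limma adjusted p = 0.232) and the complex I 51 kDa subunit gene AT5G08530 (-0.96 ± 0.42, adjusted p = 0.199). The mitochondrial RNA polymerase AT1G68990 was not called either (CYCD6:GFP -0.97 ± 0.36, adjusted p = 0.306). Of the plastid genome, 24 of 83 tested genes (28.9%) were higher with TMO5:3xGFP and 1 was lower, with a median of 0.96. The shares over all genes were the same 4.47% and 1.05%. In these counts, which keep genes that passed the filter only through TMO5:3xGFP libraries, the members were not alone in this direction.

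In root tips, tcx2 was compared with WT. The table gave 1 value per genotype with a deposited interval and no replicates, so nothing was tested, and in whole root tips fewer cells of a type and less RNA per cell cannot be told apart. Mitochondrial entries summed to 667 FPKM in tcx2 and 720 FPKM in WT, 0.0781% of the FPKM sum in tcx2 and 0.0873% in WT. Of the 141 entries, 39 were above 0 in tcx2 and 42 in WT, 95 were at 0 in both, and 16 reached 1 FPKM in at least 1 genotype. None of the 16 had intervals of tcx2 and WT that stood apart, against 0.361% of the 17465 entries of all genes that reached 1 FPKM. Of the 16, 8 were higher and 8 lower in tcx2, with a median log2 ratio of tcx2 over WT of 0.01, beside 0.00 over all genes, both as ratios of FPKM + 1.

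rrn26 was at 339 FPKM in tcx2 (interval 241 to 439) and 421 FPKM in WT (313 to 530), and rrn18 at 234 FPKM in tcx2 (166 to 311) and 207 FPKM in WT (153 to 261). The 2 ratios had opposite signs and the intervals overlapped. The merged entry of rpl16 and rps3 was at 8.82 FPKM in tcx2 (4.32 to 13.8) and 7.70 FPKM in WT (4.79 to 10.6), and the entry of nad3 and neighbours at 6.21 FPKM in tcx2 and 6.47 FPKM in WT. atp9 was at 3.77 FPKM in tcx2 and 3.86 FPKM in WT, cox2 (ATMG00160) at 1.03 FPKM in tcx2 and 1.56 FPKM in WT, and matR at 1.05 FPKM in tcx2 and 0.83 FPKM in WT. ATMG00660, an ORF beside nad4L, was at 21.7 FPKM in tcx2 and 22.9 FPKM in WT. The widest ratios of FPKM + 1 were those of ATMG01130, at 0.77 FPKM in tcx2 and 2.73 FPKM in WT (log2 ratio -1.07), and ATMG01350, at 1.35 FPKM in tcx2 and 0.53 FPKM in WT (0.62), both with intervals that reach 0.

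ATMG00030, the highest member in sorted cells, was at 22.5 FPKM in tcx2 and 19.8 FPKM in WT, and rrn5 at 9.60 FPKM in tcx2 and 9.23 FPKM in WT. For both genes the values lay above their own deposited intervals, in both genotypes, and for ATMG00660 in tcx2. Their intervals were therefore not read as errors. The kits of root tip and sorted libraries differed and so did their tables, and the mitochondrial shares of the 2 were not compared by test.

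**Figure D5:**
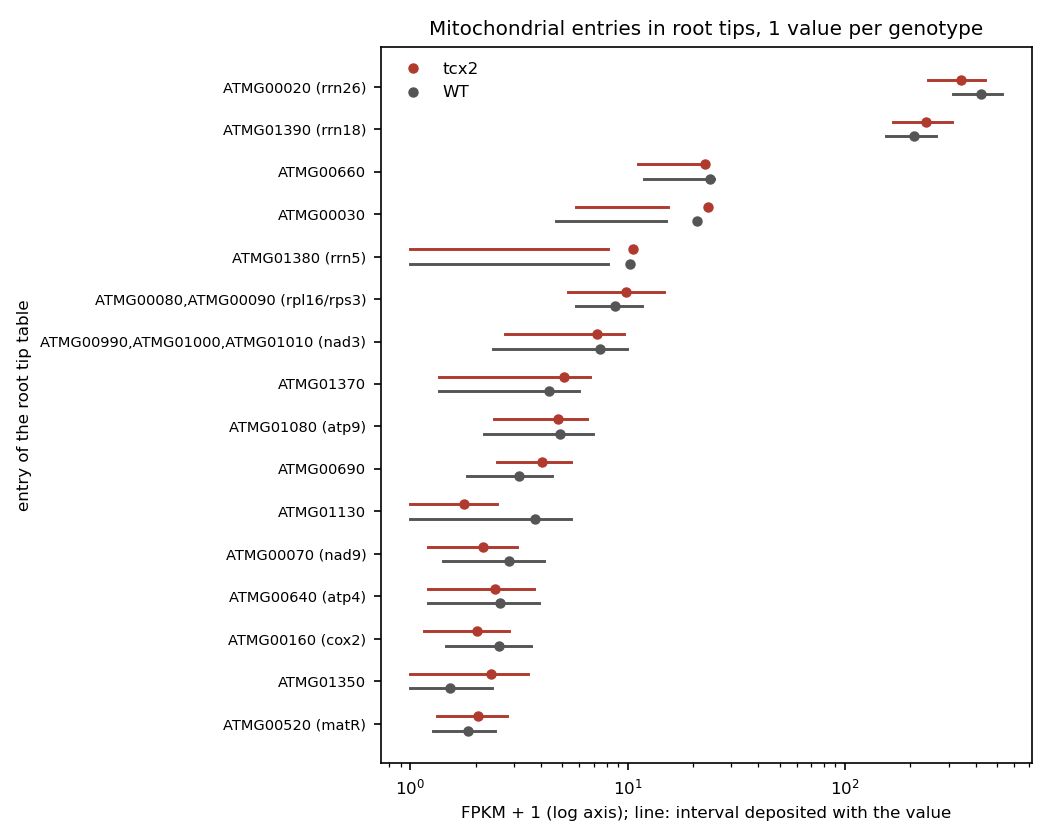
FPKM + 1 (log axis) of the 16 mitochondrial entries with at least 1 FPKM in tcx2 or WT root tips, with tcx2 above WT in each row and the deposited interval as a line. The intervals of tcx2 and WT overlap in all 16 entries, and the points of ATMG00030 and rrn5 lie outside their intervals.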

How the data were processed

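Per the labels, root tip libraries were made with the NEBNext Ultra II Directional kit and sorted cell libraries with the SMARTer Stranded kit after digestion of cell walls. The study's methods name an NEBNext Ultra II RNA kit for root tips and a SMART-Seq kit for reporter lines sorted outside the tcx2 background. They restate no kit for the sorted tcx2 cells. The submitters' processing notes name Bowtie, Bowtie2, Cufflinks and edgeR and the build TAIR10. Versions and the strand setting were not given in the sources used here. The authors deposited FPKM per library for sorted cells, and 1 FPKM per genotype with interval bounds for root tips, so depth and counting error are unknown and root tips could not be tested.

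Groups were taken from the labels. The study's methods call the sorted replicates biological without naming separate cultures, so p-values measure the spread between these samples. Sorted values were fitted as log2(FPKM + 1) in R 4.3.3 with limma 3.58.1 (group means, trended prior, at least 1 FPKM in at least 3 libraries), two-sided, with Benjamini-Hochberg adjustment over 9979 genes. Calls needed an adjusted p under 0.05 and, for contrasts, a fold over 2. This scale understates changes of low genes. The fit was tested on simulated data. Nuclear matches were found with blastn 2.17.0, and figures were drawn with matplotlib 3.10.9 in Python 3.11.15. Names were assigned when gene lengths or spacings fell within 5 bases of TAIR10.1 (24 by length, 4 by spacing, 3 by a shared span), by notes (9) or by elimination (rrn26). Of 32167 nuclear positions of the root tip table, 100.0% overlapped the same gene in TAIR10.1.

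Genes named in the text were the rRNAs, the most abundant member of each role in either table, up to 5 called members per contrast and direction, and called genes of the nuclear list. nad4L, mttB, atp9 in sorted cells, ATMG01130, ATMG01350 and the nuclear genes were singled out after their values were seen. The members and lists were chosen with earlier results of these data known.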

Additional observations from a re-analysis of the deposited data

How the results depend on the processing

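Every alternative below kept the sign of the difference of each named call, and 244 of 349 refits of the 16 single calls stayed past the thresholds. The overall count of 8 members became 5 with a pseudocount of 0.1, 2 without the filter and 80 with arrayWeights, and 4 to 12 with 1 library left out. The count of 16 calls over the 4 contrasts became 8, 6, 9 and 83 with a pseudocount of 0.1, no filter, median centring and arrayWeights, and 6 to 26 with 1 library left out. The 15 members higher in TMO5:3xGFP became 6 with a pseudocount of 0.1, 6 without the filter, 9 with median centring and 41 with arrayWeights, and 5 to 23 with 1 library left out. Without both TMO5:3xGFP replicate 1 and FEZ:FEZ-GFP replicate 3, a setting chosen after seeing the data, 14 were higher, of which 10 were among the 15. The single lower member in CYCD6:GFP became 2 with a pseudocount of 0.1, 0 with a pseudocount of 5, no filter, median centring or quantile normalization, and 26 with arrayWeights, and 0 to 2 with 1 library left out. arrayWeights also gave 10 lower in TMO5:3xGFP, 2 lower in FEZ:FEZ-GFP, 1 higher and 1 lower in WOX5:GFP and 2 higher in CYCD6:GFP, with library weights from 0.288 to 5.65. Counts of 0 lower became 1 in FEZ:FEZ-GFP without FEZ:FEZ-GFP replicate 3, alone or with TMO5:3xGFP replicate 1, and 1 in WOX5:GFP under quantile normalization. Left-out libraries gave 0 to 1 lower members in FEZ:FEZ-GFP and in WOX5:GFP. Member counts from alternative fits, here and below, were not set beside the share of all genes called in the same fit. They are therefore not read as results about the members. The causes were not tested.

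Replicate numbers were shared across populations, but 2 of 18 same-numbered pairs of libraries had deviations correlated over 0.1 and 5 of 12 libraries correlated best with their own number, so pairing was not assumed. With the replicate block, 9 members were called overall and 15 were higher in TMO5:3xGFP, of which 11 were among the 15 without it.

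The mitochondrial share of 6.85%, 8.36%, 8.92% and 6.38% (TMO5:3xGFP, FEZ:FEZ-GFP, WOX5:GFP, CYCD6:GFP) became, in that order, 34.9%, 44.5%, 44.6% and 39.8% without nuclear rRNA in the denominator, 26.0%, 34.2%, 32.8% and 28.8% without rRNA and tRNA genes of any genome, 19.4%, 25.5%, 26.3% and 21.4% with FPKM times gene length, 3.10%, 3.72%, 4.28% and 3.05% without ATMG00030, and 2.53%, 2.52%, 2.57% and 2.06% for members other than rRNA and ATMG00030 against nuclear genes, the last 2 settings chosen after seeing the data. With 1 library left out it ranged over 5.47% to 8.25%, 7.99% to 8.75%, 8.28% to 9.34% and 6.0% to 6.97%. In root tips, 2 entries (ATMG01130 and ATMG01350) passed a fold of 1.5 in FPKM + 1 when intervals were disregarded, and the median log2 ratio, 0.013 with the filter, was -0.043 without the filter. The depth behind low ORF values is unknown.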
